A study of Mus musculus with 8 samples.

Results

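Inward rectifier potassium channel genes were examined along the dorsoventral axis of the mouse medial entorhinal cortex (MEC). Their 9 members (Kcnj2, Kcnj3, Kcnj4, Kcnj6, Kcnj9, Kcnj10, Kcnj11, Kcnj12 and Kcnj16) were matched by gene symbol among 38553 genes, and all 9 were among the 13674 genes tested. RNA came from acute slices of 13 male C57BL/6JolaHsd mice, 8 weeks old and otherwise untreated, from which dorsal and ventral MEC were dissected by hand under a microscope. The mice formed 4 groups of 3 or 4, and dorsal and ventral tissue was pooled within each group. Each of the 8 libraries (4 dorsal, 4 ventral) thus stands for a pool and not for an animal, and the tissue holds all cell types of the slice. Expression is given as FPKM, in which the fragments of a gene are scaled to its exon length and to the size of the library, so that levels can be compared between genes.

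Inward rectifiers pass potassium more readily into the cell than out of it, and hold the resting potential near the potassium equilibrium. Kir2 channels are constitutively open in neurons, GIRK channels open when inhibitory receptors release G protein βγ subunits, and KATP channels close when ATP is plentiful. In glia, Kir4.1 (Kcnj10), alone or together with Kir5.1 (Kcnj16), carries the potassium conductance through which astrocytes take up potassium released by active neurons, and Kir4.1 is also made by oligodendrocytes. Kcnj10 and Kcnj16 are therefore called glial here and the other 7 members neuronal, by their main known site of expression, since bulk tissue does not show which cells made a transcript.

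Kcnj10 and Kcnj9, which encode a glial and a neuronal subunit, lie head to head on chromosome 1, with annotated starts 11.9 kb apart, and Kcnj16 lies on chromosome 11, with Kcnj2 starting 38.2 kb beyond its end. The promoter sequences of Kcnj10, its chromosomal neighbour Kcnj9 and its channel partner Kcnj16 are shown because Kcnj10 passed the dorsoventral test described below, while Kcnj9 and Kcnj16 did not. They are the 250 bases before the annotated start in RefSeq (build GRCm38.p6), read 5′ to 3′ on the gene's strand. Capitals mark matches on either strand to the CCAAT box, spelled as its name, to the GC box, with the letters GGGCGG, and to the TATA box. The letters searched for the last of these were TATAAA. No match overlapped another.
Kcnj10, chr1:172340960-172341209, plus strand: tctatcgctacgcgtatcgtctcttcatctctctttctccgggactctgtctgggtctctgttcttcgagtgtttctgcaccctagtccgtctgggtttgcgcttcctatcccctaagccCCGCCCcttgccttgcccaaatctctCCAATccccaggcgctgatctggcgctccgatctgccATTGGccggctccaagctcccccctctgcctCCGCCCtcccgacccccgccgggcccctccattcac
Kcnj9, chr1:172329323-172329572, minus strand: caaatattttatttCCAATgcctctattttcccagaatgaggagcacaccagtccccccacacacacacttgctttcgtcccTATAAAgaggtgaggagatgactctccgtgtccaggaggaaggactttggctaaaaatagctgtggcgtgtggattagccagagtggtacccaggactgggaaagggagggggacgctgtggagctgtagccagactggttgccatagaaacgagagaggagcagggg
Kcnj16, most upstream of 4 starts, chr11:110967783-110968032, plus strand: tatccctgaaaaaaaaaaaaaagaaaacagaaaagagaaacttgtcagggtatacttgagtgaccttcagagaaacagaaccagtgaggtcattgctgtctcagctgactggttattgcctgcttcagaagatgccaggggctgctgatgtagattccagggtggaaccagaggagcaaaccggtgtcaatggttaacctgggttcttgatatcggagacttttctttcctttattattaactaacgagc
The Kcnj10 window held 2 GC boxes and 2 CCAAT boxes, 17 CpG dinucleotides and 62.0% G or C. The Kcnj9 window held 1 CCAAT box and 1 TATA-box match, 5 CpG and 52.0% G or C, and the Kcnj16 window shown held none of the motifs, 3 CpG and 42.8% G or C. The windows at the other Kcnj16 starts differed, with a TATA-box match at the third and a GC box and a CCAAT box at the fourth. Over 32851 promoters of the same length, 32.7% held a GC box, 33.8% a CCAAT box and 12.4% a TATA box, with a median of 6 CpG and 52.4% G or C. The letters are a description and do not show that a factor binds there. Entries were matched for 8 of the 9 members, and Kcnj11 was the member without one.

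The libraries held 10780902 to 15359782 fragments in genes. In 4 of the 8 cases a library's column header carried the letter of the other pole. Each column was therefore tied by exact match, over all 38553 genes, to the authors' table of replicates, which names only conditions q1 and q2. Condition q1 was read as dorsal and q2 as ventral, because their means are the dorsal and ventral means in the study's supplementary data. On this reading the columns headed D1, V1, D2 and V2 are dorsal and those headed D3, V3, D4 and V4 are ventral. Values are listed in that order throughout. Of the 13674 genes tested, 294 were called higher dorsally (D>V, 2.15%) and 198 higher ventrally (V>D, 1.45%), where a call needed an adjusted p under 0.05 (limma on log2(FPKM + 1), Benjamini-Hochberg) and a difference of at least 20% between the regional means. When the total FPKM was made equal across libraries, the split was 195 D>V and 201 V>D. Defining transcripts of cortical tissue were present in both regions, among them Slc17a7, the vesicular glutamate transporter of cortical excitatory cells, at 107 ± 8.97 FPKM dorsally and 105 ± 9.67 FPKM ventrally (SD, n = 4).

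One subunit gene separated the regions. Kcnj10 was higher in dorsal than in ventral MEC, by 1.61-fold, and was the 1 member of 9 that passed the test, against a background of 3.6% of all genes tested. At an unadjusted limma p under 0.05 it was again the 1 member, against 16.0% of all genes. The same member was called D>V by the count-based tests, edgeR, which called 6.29% of all genes (3.43% D>V and 2.86% V>D), and DESeq2, which called 6.48% (3.55% and 2.93%). None of the 7 neuronal members and neither the partner gene Kcnj16 nor any other Kir or sulfonylurea receptor gene tested was called. Dorsal and ventral libraries failed to overlap for the same 1 of 9 members, against 11.1% of all genes tested (6.17% with the dorsal and 4.95% with the ventral libraries above).

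**Figure D1:**
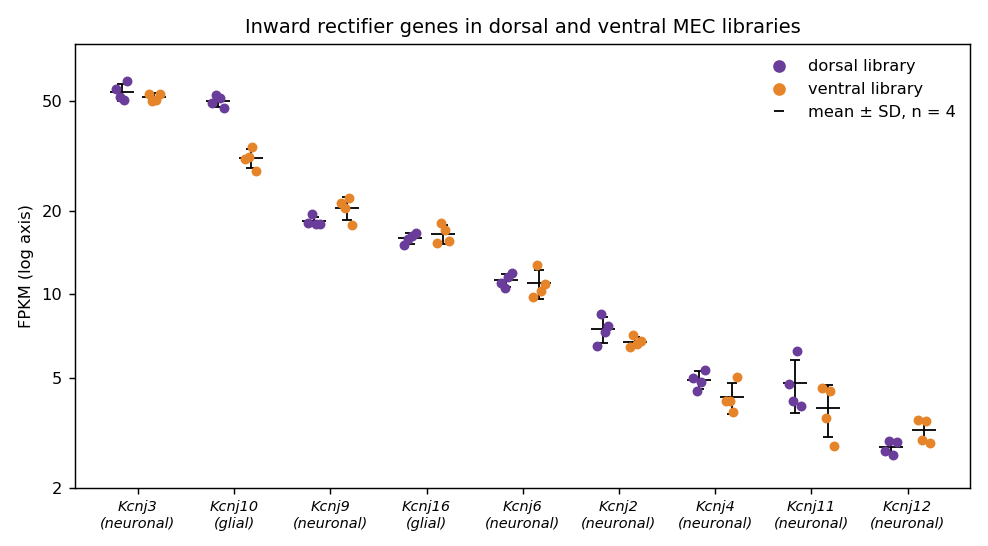
FPKM (log axis) of the 9 inward rectifier genes in each of 4 dorsal and 4 ventral MEC libraries, ordered by mean level, with bars at the mean ± SD. Kcnj10 is the member whose dorsal points (46.8 to 52.3 FPKM) all lie above its ventral points (27.9 to 33.9 FPKM), and for the other members the points of the regions overlap.

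Over both regions, the levels spanned from 52.6 FPKM for Kcnj3 to 3.01 FPKM for Kcnj12 (means over 8 libraries). Kcnj10 followed Kcnj3 at 40.4 FPKM, then came Kcnj9 (19.4), Kcnj16 (16.2), Kcnj6 (11.1), Kcnj2 (7.11), Kcnj4 (4.57) and Kcnj11 (4.31 FPKM). Kcnj3 exceeded Kcnj10 in 6 of 8 libraries, and Kcnj4 exceeded Kcnj11 in 5 of 8, so the order within these pairs of neighbours was not clear of the spread. Kcnj9 exceeded Kcnj16 in 8 of 8 libraries and Kcnj11 exceeded Kcnj12 in 7 of 8, though the ranges overlapped in both pairs. All other neighbours in the order were separated in range. The most abundant GIRK subunit and the main glial subunit were thus at like levels in dorsal MEC, with Kcnj3 at 53.8 ± 3.80 and Kcnj10 at 49.8 ± 2.43 FPKM. In ventral MEC the same pair stood at 51.4 ± 1.66 and 31.0 ± 2.45 FPKM, and their ranges did not overlap there.

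Among the glial members, Kcnj10 (chr1:172341210-172374085, plus strand) encodes Kir4.1. It was measured at 49.1, 52.3, 51.1 and 46.8 FPKM in the dorsal libraries and at 30.7, 31.3, 33.9 and 27.9 FPKM in the ventral libraries. The lowest dorsal library stood well above the highest ventral library, and the spread within a region was small beside the gap. The log2 fold change, ventral minus dorsal, was -0.67 (95% interval -0.83 to -0.51, SE 0.07, adjusted p = 0.00094, limma), and the ventral mean was 37.8% below the dorsal mean. An exact two-sided permutation test over the libraries gave p = 0.0286, the smallest that the 70 splits of 4 against 4 allow. Among all 13674 genes tested, 242 (1.77%) had a lower ratio of ventral to dorsal mean. With regions as the headers name them, each group mixes libraries read here as dorsal and as ventral. Kcnj10 was then not called (log2 fold change -0.07, adjusted p = 0.988, limma). Nor was it called with only the 4 libraries whose header and region match (-0.74, adjusted p = 0.252, limma). Kcnj10 was also among the better sampled members, with 1943 to 5335 fragments in a library.

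Kcnj16 (chr11:110968033-111027968, plus strand), the gene of the Kir5.1 subunit that joins Kir4.1 in heteromeric channels, showed no such difference. Its values were 15.0, 15.8, 16.2 and 16.6 FPKM dorsally and 15.3, 18.1, 16.996 and 15.5 FPKM ventrally. Every ventral value lay at or above the lowest dorsal one, and the regions overlapped. The log2 fold change was 0.04 (95% interval -0.11 to 0.20, adjusted p = 0.824, limma), which leaves out a fall as large as that of Kcnj10.

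The partners therefore stood in different proportion at the poles. For each FPKM of Kcnj16, dorsal libraries held 3.27, 3.32, 3.15 and 2.82 FPKM of Kcnj10, and ventral libraries held 2.01, 1.73, 1.996 and 1.799. The mean ratio was 3.14 ± 0.222 dorsally and 1.89 ± 0.141 ventrally (SD, n = 4), without overlap, and the exact permutation test of the log2 ratio gave p = 0.0286, again the smallest possible. A ratio of transcripts is not a ratio of channel subunits in the membrane. Set against Kcnj9, its neighbour on the chromosome, Kcnj10 stood at 2.72 ± 0.105 dorsally and 1.52 ± 0.0560 ventrally. Ratios of Kcnj10 to each of the other 8 members were computed after its own difference was known. All of them, the ratio to Kcnj16 included, share Kcnj10, whose libraries did not overlap by themselves. They therefore largely restate its difference and are no separate tests of it. Of these ratios, 6 did not overlap between the regions, all 6 with the same unadjusted exact p of 0.0286. The exceptions were the ratios to Kcnj4 (exact permutation p = 0.0571) and to Kcnj11 (p = 0.114), genes that were themselves lower on average in ventral libraries but were not called.

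**Figure D2:**
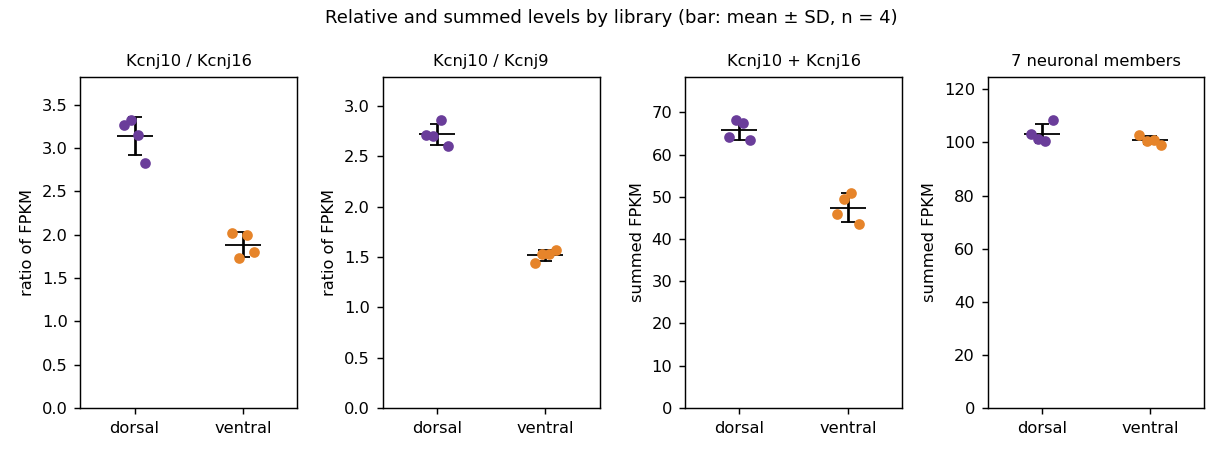
Ratio of Kcnj10 to Kcnj16 and to Kcnj9, and summed FPKM of the glial pair and of the 7 neuronal members, in each dorsal and ventral library, with bars at the mean ± SD (n = 4) and axes from 0. Both ratios and the glial sum separate the regions, and the neuronal sum (103 ± 3.52 dorsally, 101 ± 1.60 ventrally) does not.

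The neuronal members were next taken by channel family. The G protein-gated channels are built from Kcnj3 (GIRK1), Kcnj6 (GIRK2) and Kcnj9 (GIRK3). Kcnj3 (chr2:55433514-55598145, plus strand), whose product needs a partner to reach the surface, was the most abundant member, at 55.0, 51.3, 50.2 and 58.6 FPKM dorsally and 52.95, 49.6, 50.3 and 52.6 FPKM ventrally. All ventral values but the lowest lay within the dorsal range. Its log2 fold change was -0.06 (95% interval -0.21 to 0.08, adjusted p = 0.716).

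Kcnj6 (chr16:94749266-94997696, minus strand), which can form channels alone, was at 11.01, 10.5, 11.5 and 11.9 FPKM in dorsal and 9.80, 12.8, 10.3 and 10.9 FPKM in ventral libraries. The ventral libraries held both the highest and the lowest of its values. The log2 fold change was -0.04 (95% interval -0.23 to 0.15, adjusted p = 0.877).

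Kcnj9 (chr1:172321033-172329263, minus strand) encodes a subunit that alters the trafficking of the others. Dorsal libraries were at 18.05, 19.4, 17.9 and 17.97 FPKM, and ventral libraries at 21.4, 20.4, 22.2 and 17.8 FPKM. In 3 of the 4 ventral libraries the value exceeded every dorsal one, while the library V4 was the lowest of all 8. The log2 fold change was 0.15 (95% interval -0.02 to 0.31, adjusted p = 0.375, limma), and the gene was likewise not called by the count-based tests, where its unadjusted p was 0.0412 (edgeR) and 0.0438 (DESeq2) and its adjusted p 0.242 and 0.261.

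The GIRK subunits summed to 83.3 ± 3.85 FPKM dorsally and 82.8 ± 1.13 FPKM ventrally. Of that sum, Kcnj3 made up 64.5 ± 1.61% dorsally and 62.1 ± 2.15% ventrally, Kcnj9 22.04 ± 1.51% and 24.7 ± 2.06%, and Kcnj6 13.5 ± 0.685% and 13.2 ± 1.63%. The regions overlapped for all of these shares and for the sum. Exons of Kcnj3, Kcnj6 and Kcnj9 overlap those of Gm26794, Gm41505 and Gm36937, respectively, and no strand was stated for the libraries, so fragments of these partners cannot be told apart from theirs.

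The constitutively active Kir2 channels are formed by Kcnj2 (Kir2.1), Kcnj4 (Kir2.3) and Kcnj12 (Kir2.2). Kcnj2 (chr11:111066164-111076821, plus strand) stood at 6.52, 8.45, 7.30 and 7.70 FPKM in the dorsal and 6.42, 7.12, 6.59 and 6.76 FPKM in the ventral libraries. It spread more among dorsal than among ventral libraries (coefficients of variation 10.7% and 4.44%), and the regions overlapped. The log2 fold change was -0.13 (95% interval -0.31 to 0.05, adjusted p = 0.491).

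Kcnj4 (chr15:79483718-79505241, minus strand) was at 4.98, 4.46, 4.82 and 5.33 FPKM dorsally and 4.11, 4.11, 3.74 and 5.01 FPKM ventrally. Ventral values fell below every dorsal value in 3 of 4 libraries, and the library V4 lay inside the dorsal range. The log2 fold change was -0.17 (95% interval -0.38 to 0.03, adjusted p = 0.403).

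Kcnj12 (chr11:61022564-61071131, plus strand), the lowest of the members, had the opposite sign. It was measured at 2.72, 2.96, 2.62 and 2.92 FPKM in dorsal and 3.51, 2.98, 3.49 and 2.90 FPKM in ventral libraries, with 82 to 141 fragments in a library. Values in 3 of 4 ventral libraries exceeded every dorsal one, but not by a margin that passed the test (log2 fold change 0.15, 95% interval -0.04 to 0.34, adjusted p = 0.460).

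The Kir2 genes summed to 15.2 ± 0.853 FPKM dorsally and 14.2 ± 0.353 FPKM ventrally, with overlap. Within this sum the share of Kcnj12 was 19.1, 18.7, 17.8 and 18.3% in dorsal and 25.02, 20.98, 25.3 and 19.8% in ventral libraries. These shares did not overlap, although none of the 3 genes was called by itself, and the share was looked at after the values were known. Kcnj2 made up the largest part in both regions, 49.2 ± 3.08% and 47.4 ± 1.99%.

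The KATP pore gene Kcnj11 (Kir6.2; deposited locus chr7:46098725-46099897, minus strand) lies next to its sulfonylurea receptor gene Abcc8 (SUR1), 3.76 kb apart on chromosome 7. The deposited locus of Kcnj11 spans 1173 bp, less than the gene annotated in GENCODE M21. Kcnj11 was at 4.73, 4.12, 6.22 and 3.96 FPKM dorsally and 4.58, 3.58, 4.48 and 2.82 FPKM ventrally. It had the widest spread of all members in both regions (coefficients of variation 21.7% and 21.4%) and the fewest fragments, 38 to 101 in a library. The regional means differed by more than 20% (log2 ratio of mean FPKM, ventral over dorsal, -0.30), yet the libraries overlapped and the difference was within their spread (log2 fold change -0.24, 95% interval -0.58 to 0.09, adjusted p = 0.498). Of all genes tested, 19.8% had a ratio beyond the same threshold of 20%. Abcc8 stood at 3.97 ± 0.342 and 3.53 ± 0.248 FPKM (adjusted p = 0.501), and there were 1.19 ± 0.152 and 1.09 ± 0.182 FPKM of Kcnj11 for each FPKM of Abcc8, dorsally and ventrally.

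**Figure D3:**
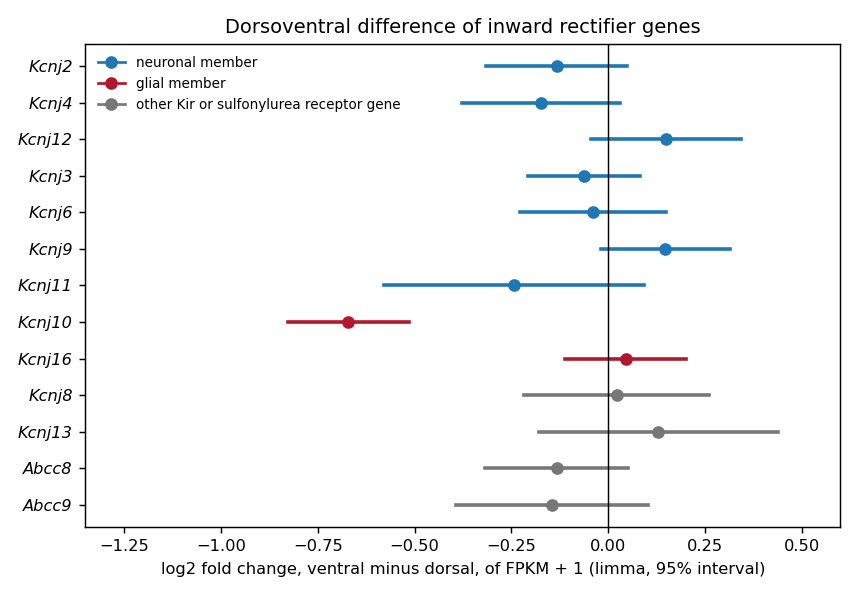
Log2 fold change of FPKM + 1, ventral minus dorsal, with its 95% interval from limma (4 dorsal and 4 ventral libraries), for the 9 members and for the other tested Kir and sulfonylurea receptor genes. The interval of Kcnj10 (-0.83 to -0.51) leaves out 0, and the intervals of the other 12 genes include it.

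Side by side, the 7 neuronal members had a median log2 ratio (ventral over dorsal mean FPKM) of -0.07, with 5 below 0 and 2 above, and none called. At an unadjusted p under 0.05 the count was 0 with limma and 1 each with edgeR and DESeq2, the gene being Kcnj9. The glial pair stood apart from each other, at -0.69 for Kcnj10 and 0.05 for Kcnj16. The median over all tested genes was -0.01, with 51.2% of genes below 0, and the median size of the log2 ratio was 0.11 over all genes and 0.16 over the 8 members other than Kcnj10. Neuronal members summed to 103, 101, 101 and 108 FPKM in dorsal and 103, 101, 101 and 98.9 FPKM in ventral libraries, while the glial pair summed to 64.1, 68.1, 67.4 and 63.4 against 46.0, 49.4, 50.9 and 43.5 FPKM. The glial share of all 9 members was 38.9 ± 1.58% dorsally and 32.0 ± 1.46% ventrally and did not overlap. Of its terms, Kcnj16 and the neuronal sum overlapped between the regions and Kcnj10 did not.

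Of the 6 other genes of the Kir family, 4 did not reach the level for testing. Kcnj1 was listed at 0 FPKM in all 8 libraries and had 0 fragments, which allows up to 3 fragments in a library by counting error. Kcnj5, the GIRK4 subunit of the heart, had 56 fragments over all libraries and a mean of 0.102 FPKM, Kcnj14 had 80 fragments and 0.246 FPKM, and Kcnj15 had 14 fragments and 0.0313 FPKM. Kcnj8 (Kir6.1), the KATP pore of vascular mural cells, was at 1.44 ± 0.236 and 1.48 ± 0.154 FPKM (adjusted p = 0.954), and its partner Abcc9 (SUR2) at 1.78 ± 0.341 and 1.505 ± 0.0711 FPKM (adjusted p = 0.606). Kcnj13 was at 4.55 ± 0.514 and 5.14 ± 1.13 FPKM (adjusted p = 0.724), a level listed above those of Kcnj4, Kcnj11 and Kcnj12 over the 8 libraries, but its exons overlap Gigyf2 and its value is uncertain.

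The partners of GIRK channels were called in both directions. Of 24 genes (GABA-B and other inhibitory receptors, their KCTD subunits, G protein subunits, RGS proteins and Snx27), all were tested, 1 was called D>V and 1 V>D by limma, where 3.6% of all genes tested were called. At an unadjusted limma p under 0.05 there were 8 of the 24, beside 16.0% of all genes, and the median log2 ratio was 0.02. Rgs7bp, which anchors RGS7 complexes at the membrane and thereby speeds GIRK closure, fell from 67.0 ± 4.16 FPKM dorsally to 53.3 ± 4.57 FPKM ventrally (log2 ratio -0.33, adjusted p = 0.0461). Gng2, a G protein γ subunit, rose from 60.3 ± 3.26 to 77.2 ± 6.32 FPKM (log2 ratio 0.36, adjusted p = 0.0262), though its exons overlap Gm48283. Log2 ratios of the genes that limma did not call ran from -0.38 (Rgs8, adjusted p = 0.0839) to 0.40 (Kctd8, adjusted p = 0.310). Rgs8, another regulator of G protein signalling, stood at 19.7 ± 1.66 dorsally and 15.1 ± 2.08 FPKM ventrally. The count-based tests called it D>V (adjusted p = 0.0290 with edgeR and 0.00759 with DESeq2), in addition to Rgs7bp and Gng2. The regions did not overlap for Rgs8, Rgs7bp and Gnb5 (dorsal higher) and for Gng2, Kctd8 and Htr1a (ventral higher), beside 11.1% of all genes. Exons of Rgs8, Gnb5 and Kctd8 overlap those of Gm29529, Gm19531 and Gm24368, respectively. The GABA-B receptor genes Gabbr1 and Gabbr2 stood at 79.4 ± 3.03 and 94.3 ± 12.6 FPKM dorsally and 76.7 ± 2.26 and 95.8 ± 13.9 FPKM ventrally (adjusted p = 0.746 and 0.960).

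Scaffold genes that hold Kir2 channels at the membrane (the Dlg and Lin7 families, Cask, Apba1, Akap5 and Flna) numbered 11, all tested. None was called by limma, edgeR or DESeq2, where limma called 3.6% of all genes tested. With DESeq2, Flna (adjusted p = 0.0337) and Dlg3 (0.0488) missed a call only through the 20% threshold. An unadjusted limma p under 0.05 was found for 1, beside 16.0% of all genes. Their log2 ratios ran from -0.12 (Lin7b) to 0.17 (Dlg3), with a median of 0.06.

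Genes that work beside Kir4.1 in astrocytes, in clearing potassium, water and glutamate, gave no call. Of 19 such genes 18 were tested, with 0 called by limma, edgeR or DESeq2 and a median log2 ratio of -0.03. These tools called 3.6%, 6.29% and 6.48% of all genes tested, respectively, so a list this short without a call does not stand apart. At an unadjusted limma p under 0.05 there were 4, beside 16.0% of all genes. Some missed a call only through the 20% threshold, among them Glul (adjusted p = 0.0308 with edgeR and 0.0032 with DESeq2). With DESeq2 this held also for Aqp4 (adjusted p = 0.0190) and Slc4a4 (0.0350). Genes without overlap were Glul, Slc1a2 and Slc4a4 (dorsal higher) and Aqp4 and Slc1a3 (ventral higher), beside 11.1% of all genes. Their ratios ran from -0.25 for Glul, the astrocytic glutamine synthetase, at 293 ± 15.4 and 246 ± 14.0 FPKM (adjusted p = 0.0872), to 0.20 for Aqp4, the water channel of astrocyte endfeet, at 37.1 ± 1.88 and 42.6 ± 2.23 FPKM (adjusted p = 0.142). The glutamate transporter gene Slc1a2 stood at 682 ± 36.7 and 635 ± 29.5 FPKM. None of the ratios in this list reached that of Kcnj10.

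Markers of the cell types that make Kir4.1 were then set beside its level. Over all genes tested, limma called 3.6%, edgeR 6.29% and DESeq2 6.48%, and 16.0% had an unadjusted limma p under 0.05. A short list without a call therefore does not stand apart from all genes. Of 15 astrocyte markers none was called by limma (3 at an unadjusted p under 0.05), their median log2 ratio was -0.002, and their summed level ran from 1309 to 1401 FPKM in dorsal and 1294 to 1410 FPKM in ventral libraries. The count-based tests called 1 of them, Gfap, in the V>D direction, at 18.3 ± 1.59 and 22.1 ± 0.984 FPKM. Of 14 oligodendrocyte markers 13 were called D>V by limma and all 14 by edgeR and DESeq2, with a median log2 ratio of -0.87. Their sum ran from 976 to 1293 FPKM in dorsal and 533 to 699 FPKM in ventral libraries, without overlap. Mbp, the myelin basic protein gene, fell from 438 ± 56.2 FPKM dorsally to 241 ± 25.6 FPKM ventrally (adjusted p = 0.00254). Opalin showed the lowest ratio of the list at -1.24, and Sox10, the member that limma did not call, stood at -0.40 (adjusted p = 0.0931). In these bulk samples, fewer cells of a type and less RNA per cell cannot be told apart.

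For each 100 FPKM of summed astrocyte markers there were 3.75, 3.91, 3.79 and 3.34 FPKM of Kcnj10 in dorsal and 2.37, 2.42, 2.41 and 2.06 in ventral libraries, again without overlap. Slc1a2 alone made up 682 of the mean 1350 FPKM of this sum dorsally and 635 of 1339 FPKM ventrally, so the other markers carried less weight. For each 100 FPKM of summed oligodendrocyte markers there were 5.03, 4.24, 4.04 and 3.62 in dorsal and 5.77, 4.47, 4.89 and 4.02 in ventral libraries, and here the regions overlapped. The oligodendrocyte sum was likewise weighted to its abundant genes, among them Mbp. The part of oligodendrocytes in the difference of Kcnj10 was not tested. Kcnj16 for each 100 FPKM of astrocyte markers was 1.18 ± 0.0235 dorsally and 1.23 ± 0.112 ventrally, with overlap. No marker of either list was listed at 0.

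**Figure D4:**
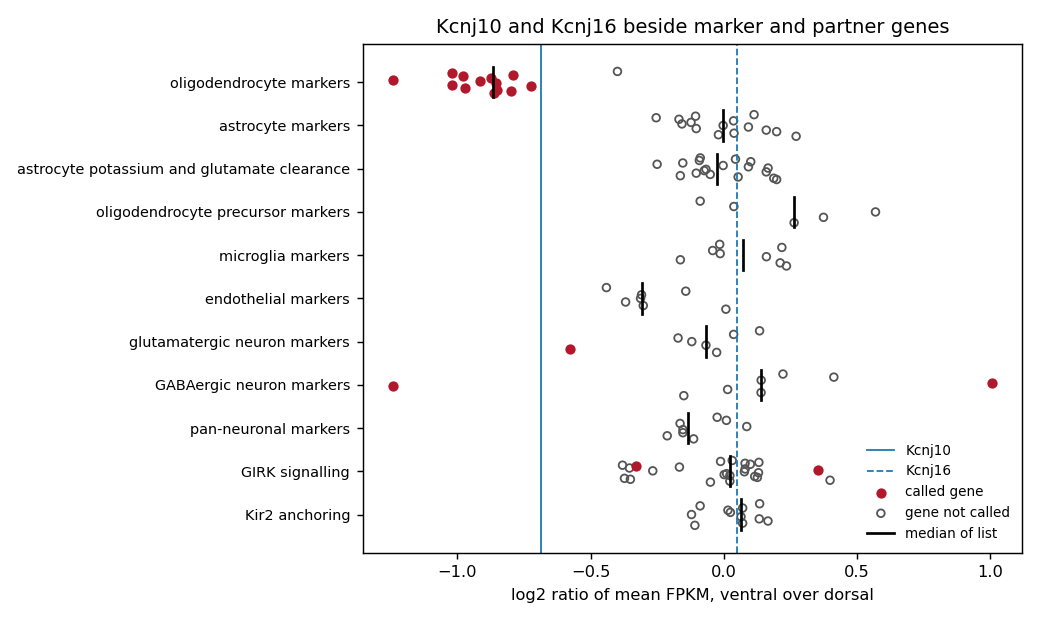
Log2 ratio of mean FPKM, ventral over dorsal, of each tested gene in 11 lists of markers and channel partners, with filled points for called genes, open points for the others and a black bar at each median. The line of Kcnj10 (-0.69) lies beside the oligodendrocyte markers (median -0.87) and beyond every astrocyte marker, and the dashed line of Kcnj16 (0.05) lies among the astrocyte markers.

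Markers of other cell types were counted in the same way. The shares of all genes beside them are again 3.6% called by limma, 6.29% by edgeR and 6.48% by DESeq2. An unadjusted limma p under 0.05 was found for 16.0% of all genes. Of 5 oligodendrocyte precursor markers tested none was called by limma (1 at an unadjusted p under 0.05), edgeR and DESeq2 each called Pdgfra V>D, and the list's median log2 ratio was 0.26, opposite in sign to the mature oligodendrocyte list. The summed level of these precursor markers ran from 17.3 to 18.8 FPKM in dorsal and 19.5 to 21.1 FPKM in ventral libraries. None of 8 microglia markers was called by any of the 3 tools (2 at an unadjusted limma p under 0.05), and their median was 0.07. None of 7 endothelial markers tested was called by limma or edgeR, with 2 called by DESeq2 (Tek and Slco1a4, D>V), 2 at an unadjusted limma p under 0.05 and a median of -0.31. The summed endothelial level ran from 31.7 to 35.6 FPKM in dorsal and from 23.99 to 30.1 FPKM in ventral libraries. Of 7 mural cell markers tested limma called Vtn V>D (log2 ratio 0.44, adjusted p = 0.0229), a call that was lost with edgeR (adjusted p = 0.0799) and DESeq2 (0.0707).

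Of the neuronal markers, limma called a glutamatergic gene and a pair of GABAergic genes, where 3.6% of all genes tested were called. None of 8 pan-neuronal markers was called by limma, edgeR or DESeq2 (2 at an unadjusted limma p under 0.05), and their median log2 ratio was -0.13. Of 7 glutamatergic markers 1 was called, Slc17a6, D>V at 10.8 ± 0.255 and 7.21 ± 0.474 FPKM (adjusted p = 0.00235). Of 8 GABAergic markers, Pvalb was called D>V (log2 ratio -1.24, adjusted p = 0.000942) and Sst V>D (1.01, adjusted p = 0.0147), both of them markers of interneuron classes. The count-based tests called Lhx6, a transcription factor of the same interneurons, V>D as well (5.19 ± 0.657 and 6.91 ± 0.738 FPKM, adjusted p = 0.0903 with limma, 0.0193 with edgeR and 0.00672 with DESeq2). At an unadjusted limma p under 0.05 there were 5 of the 8, beside 16.0% of all genes. The summed GABAergic level ran from 245 to 319 FPKM in dorsal and from 327 to 420 FPKM in ventral libraries, without overlap.

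The genes whose pattern over the 8 libraries was most like that of Kcnj10, by the root mean square difference of log2(FPKM + 1) centred on each gene's mean, were Ephb1 (0.043), Lgi3 (0.052) and Tmem63a (0.062). Ephb1, an ephrin receptor, stood at 10.2 ± 0.855 dorsally and 6.04 ± 0.412 FPKM ventrally, Lgi3 at 11.2 ± 1.12 and 6.74 ± 0.484 FPKM, and Tmem63a at 8.03 ± 0.625 and 4.84 ± 0.240 FPKM. All 3 were called D>V, which their choice by likeness to Kcnj10 over the same libraries made likely in advance. Exons of Ephb1 and Tmem63a overlap those of Gm26846 and 2210411M09Rik, respectively.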

How the data were processed

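RNA from 4 dorsal and 4 ventral pools was amplified (Ovation RNA-Seq System V2, 120 ng), and sequenced as paired ends. Reads were processed with CASAVA 1.8, aligned with TopHat2 2.0.8 and quantified by the authors with Cuffdiff against Ensembl release 73. The deposited FPKM are Cuffdiff's levels summed over transcripts. The authors' estimated counts of fragments per library, as deposited by Cuffdiff (90.6% whole), were rounded before use with edgeR and DESeq2. The authors' columns of fold changes and p-values, and 2 further per-library columns of scaled fragments, were not used.

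limma 3.58.1 (R 4.3.3) was fitted to log2(FPKM + 1), allowing the variance to follow the mean, for the 13674 genes that had enough alignments and averaged 1 FPKM or more, and p was adjusted by Benjamini-Hochberg over them. Calls were made where the adjusted p was below 0.05 and the regional means lay further apart than 0.263 on the log2 scale (20%). The pseudocount of 1 understates changes of low genes. edgeR 4.0.16 (quasi-likelihood) and DESeq2 1.42.0 were added as alternatives after the data had been seen. Tested on simulated data for the dorsal and ventral contrast over 13674 genes, the limma step recovered 171 of 200 changed genes. The same step made 8 false calls. Recovery of differences as small as those of the uncalled members was not tested. Other alternatives varied the pseudocount, filters, variance model, scaling, library weights, ratio threshold and assignment of libraries, and left out each library in turn. Exact permutation tests were two-sided. Counting intervals cover counting error only.

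Regions were assigned in steps. Identity of FPKM tied the library columns to the conditions q1 and q2 of the authors' replicate table. The means of these conditions were then read as dorsal and ventral from the study's supplementary data. Which dorsal and ventral libraries share a pool of mice is not given in the sources used here. p-values measure the spread between pools, with dorsal and ventral libraries treated as unpaired.

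The members and lists were chosen with earlier results of these data known. Named genes were the 9 members, the other Kcnj and sulfonylurea receptor genes, the called genes and range ends of each list, and the 3 genes most like each called member; other genes named were chosen after their values were seen. Gene coordinates are those of the deposited loci (GRCm38); promoter sequences are from RefSeq, GRCm38.p6, and overlaps from GENCODE M21.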

Additional observations from a re-analysis of the deposited data

Results flagged for a closer look

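Within the dorsal group, Kcnj9 in the library headed V1 stood far above the others, at 19.4 FPKM, while the other 3 dorsal libraries were between 17.9 and 18.05 FPKM. Of 18 member and region groups examined for a sample far from the rest, this was the 1 found, and chance alone gives about 1 in 20. Kcnj9 was not called without that library, nor without any other, with adjusted p (limma) from 0.157 to 0.597.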

How the results depend on the processing

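The call of Kcnj10 kept its direction and its side of the threshold in 22 of 24 alternatives. Leaving out each library in turn gave log2 fold changes from -0.71 to -0.62 and adjusted p (limma) from 0.0023 to 0.0063. It was lost with regions as the headers name them (log2 fold change -0.07, adjusted p = 0.988) and with only the 4 libraries whose headers match (-0.74, adjusted p = 0.252). No alternative called any of the other 8 members. With the headers' regions, 1 gene was called D>V and 0 V>D (721 at an unadjusted p under 0.05) and 0 members. With the 4 matching libraries, 0 genes were called in either direction (1240 at an unadjusted p under 0.05) and 0 members. The counts were 469 D>V and 391 V>D by edgeR and 485 and 401 by DESeq2. Rescaling to one total FPKM gave 195 D>V and 201 V>D, so that the excess of D>V calls was lost, and all genes together had a median of 0.04 (log2). Leaving out a library gave 157 to 341 D>V genes and 91 to 191 V>D genes, lowest without V1 (157 and 91) or D3 (163 and 91). It moved the D>V count past 1.5 times also without V2 (189), and the V>D count without D2 (123) or D4 (121). The difference between glial and neuronal medians (log2 ratio, glial minus neuronal) was -0.25, ranged from -0.30 to -0.20 without a library, and was -0.0276 with the headers' regions. The glial median is the midpoint of 2 genes of opposite sign, Kcnj10 (-0.69) and Kcnj16 (0.05). It therefore does not describe the glial members as a class. With the headers' regions, D1 and D2 are grouped with D3 and D4, and V1 and V2 with V3 and V4. Each group then mixes libraries read here as dorsal and as ventral. That alternative therefore does not set the regions used here against each other. The cause of the changes across the other alternatives was not tested, apart from fewer libraries in the fits that leave some out. No paired analysis was possible because neither labels nor columns say which dorsal and ventral libraries came from the same pool of mice. Kcnj11 had the fewest fragments of the members.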
